A study of Mus musculus with 6 samples.

Results

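The 10 genes of the major histocompatibility complex (MHC) pathways followed here through 6 single-nucleus RNA-seq libraries of mouse cortex were H2-K1, H2-D1, H2-Q4, B2m, Nlrc5 and Tap1 of class I, and H2-Aa, H2-Ab1, H2-Eb1 and Cd74 of class II. They were taken by symbol, and all 10 were present among the 32285 genes of the files. The libraries came from cortex of 7.5-month-old mice, with nuclei taken from a sort that leaves out NeuN-carrying, mainly neuronal, nuclei. Each of 3 groups had 2 libraries, which the labels number 2 and 3: 5xFAD mice with the P522R variant, 5xFAD mice with the M28L variant, and 5xFAD mice with neither variant. All groups carry 5xFAD, a transgenic background in which human genes with familial Alzheimer mutations are driven in neurons, so no library came from mice without these transgenes. P522R and M28L are variants of phospholipase C-gamma 2, an enzyme of microglial signalling. Males and females both gave nuclei to each library, and their shares among microglia differed between libraries, as given below. The numbers of mice are not given, and p-values measure the spread between libraries, which may be technical.

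MHC class I molecules display peptides from inside the cell to CD8 T cells on nearly every nucleated cell. H2-K1 and H2-D1 encode classical heavy chains, H2-Q4 encodes a non-classical one, B2m encodes the shared light chain, and Tap1 encodes one chain of the transporter that brings peptides into the endoplasmic reticulum. Nlrc5 encodes the transactivator of class I genes and is itself induced by interferon. Class II molecules display peptides from endosomes to CD4 T cells and are made mainly by dendritic cells, B cells and macrophages. H2-Aa encodes the alpha chain and H2-Ab1 the beta chain of I-A, H2-Eb1 encodes the beta chain of I-E, and Cd74 encodes the invariant chain that guards the class II groove. In the healthy brain parenchyma both classes are low. Class II is better known from macrophages at the brain's borders and, under disease, from a minority of microglia.

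In the GRCm38 build, 7 of the 10 genes lie on chromosome 17, within the mouse MHC: H2-K1 (33996017 to 34000347, minus strand), Tap1 (34187553 to 34197225, plus), H2-Ab1 (34257689 to 34269419, plus), H2-Aa (34282744 to 34287823, minus), H2-Eb1 (34305867 to 34316674, plus), H2-D1 (35262730 to 35267499, plus) and H2-Q4 (35379617 to 35385290, plus). B2m lies on chromosome 2 (122147686 to 122153083, plus) and Nlrc5 on chromosome 8 (94434356 to 94527272, plus), while Cd74 is also outside the MHC. Opposite-strand genes overlap 5 of them: Gm11131 overlaps H2-Q4, Patl2 overlaps B2m, 9330175E14Rik overlaps Nlrc5, Psmb9 overlaps Tap1 and Gm20513 overlaps H2-Eb1. The counting is not stated to use strand, and if it did not, reads of those pairs cannot be told apart. H2-K1, H2-D1 and H2-Q4 are related genes of 1 family, and reads that fit several of them could have been lost or misplaced.

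RefSeq promoter windows (GRCm38.p6, 250 bases before to 50 bases after the start site) were at hand for 7 of the 10 genes. Of these, 5 are shown, those of H2-K1, H2-D1 and B2m for class I and of H2-Aa and H2-Eb1 for class II. Capitals mark exact matches to 5 short motifs searched on both strands, which do not overlap one another here: the NF-kB site GGGATTCCC, the Y box core CTGATTGG (CCAATCAG when it lies on the other strand), the X1 box core GCAACAG, the interferon response core GAAANNGAA and the gamma-activated site TTCNNNGAA. The windows are chr17:34000298-34000597 on the minus strand for H2-K1, chr17:35262844-35263143 on the plus strand for H2-D1, chr2:122147437-122147736 on the plus strand for B2m, chr17:34287774-34288073 on the minus strand for H2-Aa and chr17:34305617-34305916 on the plus strand for H2-Eb1.
H2-K1: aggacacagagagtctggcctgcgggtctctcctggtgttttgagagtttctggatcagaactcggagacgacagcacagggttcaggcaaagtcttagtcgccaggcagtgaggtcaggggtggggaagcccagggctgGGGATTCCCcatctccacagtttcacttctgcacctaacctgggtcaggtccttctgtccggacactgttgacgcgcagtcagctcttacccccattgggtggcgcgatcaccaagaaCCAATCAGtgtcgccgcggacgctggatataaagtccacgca
H2-D1: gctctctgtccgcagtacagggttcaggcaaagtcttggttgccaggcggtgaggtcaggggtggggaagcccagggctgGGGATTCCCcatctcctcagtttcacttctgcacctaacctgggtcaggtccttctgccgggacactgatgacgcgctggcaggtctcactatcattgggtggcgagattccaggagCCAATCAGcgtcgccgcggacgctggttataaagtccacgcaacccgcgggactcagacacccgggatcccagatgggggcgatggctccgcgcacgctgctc
B2m: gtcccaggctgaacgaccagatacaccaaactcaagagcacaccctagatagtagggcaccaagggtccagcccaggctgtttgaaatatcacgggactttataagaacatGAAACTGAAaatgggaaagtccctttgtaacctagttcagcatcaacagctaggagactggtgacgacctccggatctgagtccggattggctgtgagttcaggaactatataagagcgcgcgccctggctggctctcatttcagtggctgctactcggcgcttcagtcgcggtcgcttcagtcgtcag
H2-Aa: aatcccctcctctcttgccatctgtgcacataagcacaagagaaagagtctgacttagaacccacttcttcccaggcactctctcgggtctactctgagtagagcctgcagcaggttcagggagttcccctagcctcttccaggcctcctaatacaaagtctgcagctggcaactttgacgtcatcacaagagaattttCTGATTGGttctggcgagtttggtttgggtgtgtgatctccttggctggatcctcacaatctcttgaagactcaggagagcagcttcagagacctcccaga
H2-Eb1: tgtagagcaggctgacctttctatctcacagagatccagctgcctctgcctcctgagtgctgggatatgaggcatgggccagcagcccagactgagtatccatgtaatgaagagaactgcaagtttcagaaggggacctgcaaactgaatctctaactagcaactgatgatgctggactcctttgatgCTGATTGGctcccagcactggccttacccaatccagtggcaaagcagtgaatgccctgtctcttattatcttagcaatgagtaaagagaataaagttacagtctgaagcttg
The H2-K1 and H2-D1 windows hold GGGATTCCC, which stands in 0.353% of 32851 RefSeq promoter windows of this length. CTGATTGG, present in 4.10% of all windows, was matched in 4 of these 5, at -51 in H2-Aa and -62 in H2-Eb1 on the gene's strand. It lay in the other orientation at -53 in H2-D1 and at 9, after the start site, in H2-K1. A second H2-K1 window, with another start site, placed that match at -6. B2m alone of the 5 held GAAANNGAA, at -139, a string found in 8.56% of all windows. The other motifs, GCAACAG and TTCNNNGAA, which stand in 5.48% and 8.30% of all windows, had no match in these 5. Of the class I windows not shown, H2-Q4 held no match to any of the 5 motifs. Tap1 held only CTGATTGG, at -222 in the other orientation. The matches in H2-K1 and H2-D1 are therefore not a pattern of all class I windows. Such matches describe letters in the windows only.

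After filters, 60085 nuclei remained of 62687 barcodes, with library totals between 53326947 and 72288942 unique molecular identifiers (UMIs, counted transcript molecules) and medians of 3842 to 4973 UMIs per nucleus. Nuclei were clustered with antigen presentation genes left out of the genes used, and clusters were named from marker genes, hence the ending "-like". Between 20 and 71 cell barcodes were shared by a pair of libraries. The 5xFAD replicate 2 library stood apart: it had the lowest median depth, and it gave 437 of the 520 nuclei of microglia cluster 4 and 3342 of the 6565 nuclei of oligodendrocyte cluster 2. Although the sort was for NeuN-negative nuclei, 5176 nuclei were neuron-like.

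H2-K1, H2-D1, H2-Q4 and B2m were highest in T cell-like nuclei and then in endothelial-like nuclei. Levels below are UMIs scaled to a total of 1000000 for a cell type in a library (CPM), as mean ± SD over the 6 libraries, and they describe clusters without a test. H2-K1 averaged 985 ± 436 CPM in 46 T cell-like nuclei, 210 ± 42.6 in 454 endothelial-like nuclei, 79.2 ± 26.8 in border macrophage-like nuclei and 64.3 ± 13.1 in microglia-like nuclei. It averaged 18.2 ± 1.24 CPM in astrocyte-like, 12.2 ± 2.85 in oligodendrocyte-like and 2.18 ± 0.493 in neuron-like nuclei. The ranges over libraries separated T cell-like, endothelial-like and border macrophage-like nuclei from one another, but border macrophage-like and microglia-like nuclei overlapped. The T cell-like nuclei also had natural killer genes, Klrb1c and Nkg7, among their first 10 genes, and they numbered only 5 to 14 per library.

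H2-D1 had the same first 4 types in order, with 707 ± 142 CPM in T cell-like, 263 ± 51.1 in endothelial-like, 82.7 ± 34.5 in border macrophage-like and 42.1 ± 5.90 in microglia-like nuclei. H2-Q4 was 407 ± 123 CPM in T cell-like, 63.9 ± 12.5 in endothelial-like and 30.1 ± 3.90 in microglia-like nuclei. B2m, the light chain, ran from 305 ± 210 CPM in T cell-like nuclei through 209 ± 36.4 in endothelial-like and 135 ± 47.0 in border macrophage-like to 121 ± 7.66 in microglia-like nuclei, and each of these neighbours overlapped over libraries. Below them B2m dropped to 22.5 ± 8.05 CPM in fibroblast-like and 8.86 ± 1.1203 in oligodendrocyte-like nuclei, with no overlap between microglia-like and fibroblast-like nuclei. Microglia-like nuclei held 51.3% of all 7438 B2m UMIs. After thinning each nucleus to 1500 UMIs, B2m was seen in 25.8% of endothelial-like nuclei (95% Clopper-Pearson interval 21.8 to 30.2, counting error only), 16.5% of microglia-like nuclei (15.7 to 17.4) and 1.31% of oligodendrocyte-like nuclei (1.17 to 1.46). Before thinning the shares were 46.5%, 35.2% and 3.30% in that order.

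Nlrc5 was ordered otherwise. It averaged 822 ± 406 CPM in T cell-like, 109 ± 71.5 in border macrophage-like, 82.5 ± 12.8 in microglia-like, 36.7 ± 20.1 in endothelial-like and 11.1 ± 3.81 in oligodendrocyte-like nuclei, and from border macrophage-like nuclei down each neighbour overlapped the next. So endothelial-like nuclei, which stood second for H2-K1, H2-D1, H2-Q4 and B2m, stood behind both macrophage types for the class I transactivator. Tap1 averaged 93.6 ± 49.4 CPM in T cell-like nuclei and between 21.4 and 25.5 in microglia-like, endothelial-like and border macrophage-like nuclei, which overlapped.

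**Figure D1:**
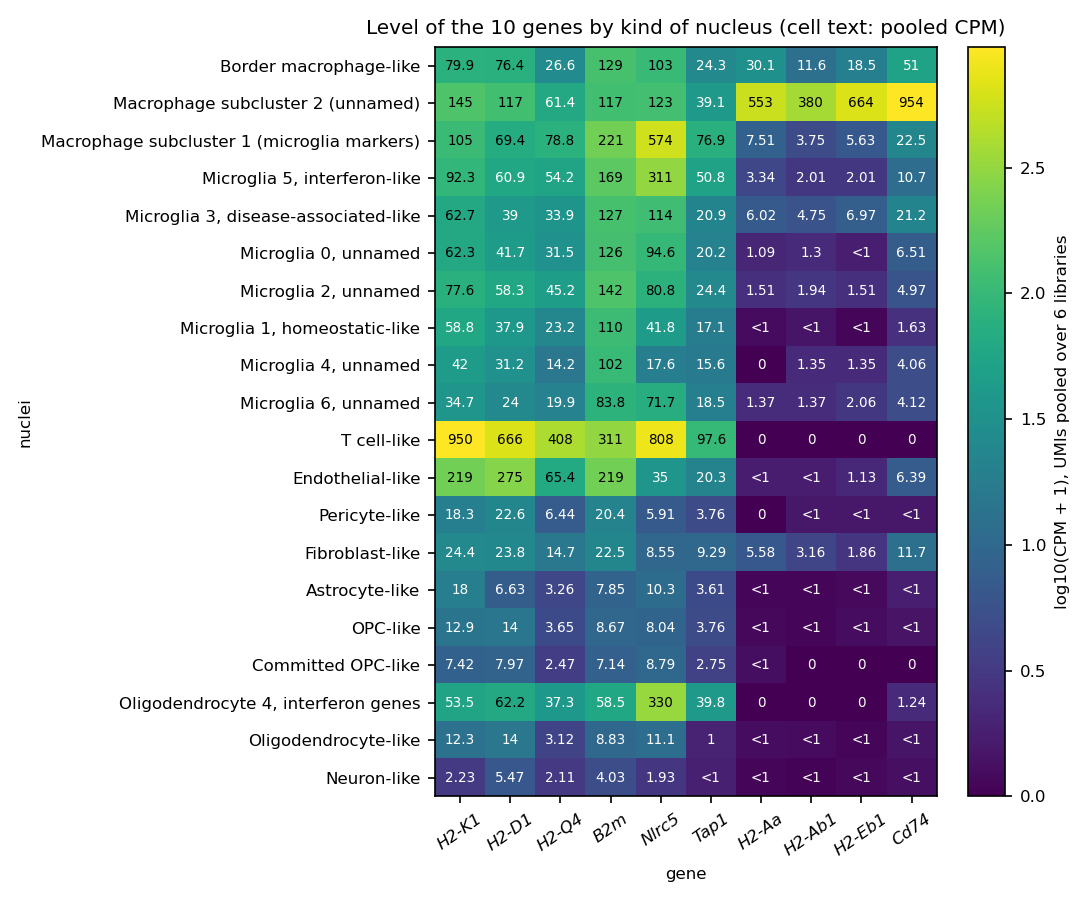
Heat map of the 10 genes (columns) in cell types and clusters (rows). Colour is log10(CPM + 1) of UMIs pooled over 6 libraries, and the cell text gives the pooled CPM. The T cell-like row is bright for the class I genes and at 0 for the 4 class II genes, while macrophage subcluster 2 is the brightest row for the class II genes.

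The class II genes were concentrated in a small set of nuclei. Clustering of the macrophage group gave a subcluster of 61 nuclei led by Sirpb1b, Plbd1, Ccr2 and Flt3, of which Ccr2 is a chemokine receptor of monocytes and Flt3 a growth factor receptor of dendritic cells. It was left unnamed, because its markers did not settle on a single class. In it H2-Aa averaged 542 ± 218 CPM, H2-Ab1 385 ± 119, H2-Eb1 558 ± 374 and Cd74 963 ± 382. These 61 of 60085 nuclei held 457 of the 1397 UMIs of the 4 class II genes, or 32.7%. Microglia-like nuclei, 7875 in number, held 342 (24.5%), and 241 border macrophage-like nuclei held 96 (6.87%). The subcluster had 3 to 31 nuclei per library, 31 of them in 5xFAD replicate 2, so it was not tested between groups. Its Cd74 level was nonetheless high in every library, at 806 and 746 CPM in P522R libraries, 1282 and 1538 CPM in M28L libraries, and 914 and 490 CPM in 5xFAD libraries. The M28L values, the highest, rest on 33 and 24 UMIs in 8 and 4 nuclei.

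Border macrophage-like nuclei, which carry Mrc1, F13a1 and Cd163, came next. H2-Aa averaged 29.9 ± 21.8 CPM there, H2-Ab1 9.30 ± 15.4, H2-Eb1 18.7 ± 21.7 and Cd74 47.0 ± 27.7. These means depend on the clustering: with antigen presentation genes kept, border macrophage-like nuclei numbered 195 in place of 241 and averaged only 11.1 CPM of Cd74 and 2.36 CPM of H2-Aa. A subcluster of 59 nuclei led by Sirpb1b stood apart from them there too, and the cause of the drop was not tested. Fibroblast-like nuclei of the meninges or vessels followed with 10.7 ± 6.85 CPM of Cd74, then microglia-like nuclei with 6.40 ± 1.74. Endothelial-like nuclei had Cd74 UMIs in M28L replicate 2 alone, 17 UMIs in 2 nuclei. T cell-like nuclei had no UMI of any class II gene.

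Free RNA in the droplets can give stray UMIs, so shares of nuclei were set beside types that should lack class II. Thinned to 1500 UMIs, 62.1% of nuclei in the 61-nucleus subcluster had a Cd74 UMI (interval 48.4 to 74.5, 75.4% before thinning), against 0.0613% of oligodendrocyte-like nuclei (0.0343 to 0.101, 0.198% before) and 0.0391% of neuron-like nuclei (0.00473 to 0.141, 0.464% before). Border macrophage-like nuclei gave 6.30% (3.57 to 10.2, 9.13% before) and microglia-like nuclei 0.817% (0.629 to 1.04, 2.01% before). The intervals of all 3 lay above those of oligodendrocyte-like and neuron-like nuclei. They pool the nuclei of 6 libraries and hold counting error only, not the spread between libraries. Median depths were 2743 UMIs in the subcluster, 3551 in microglia-like, 3813 in oligodendrocyte-like and 11351 in neuron-like nuclei.

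**Figure D2:**
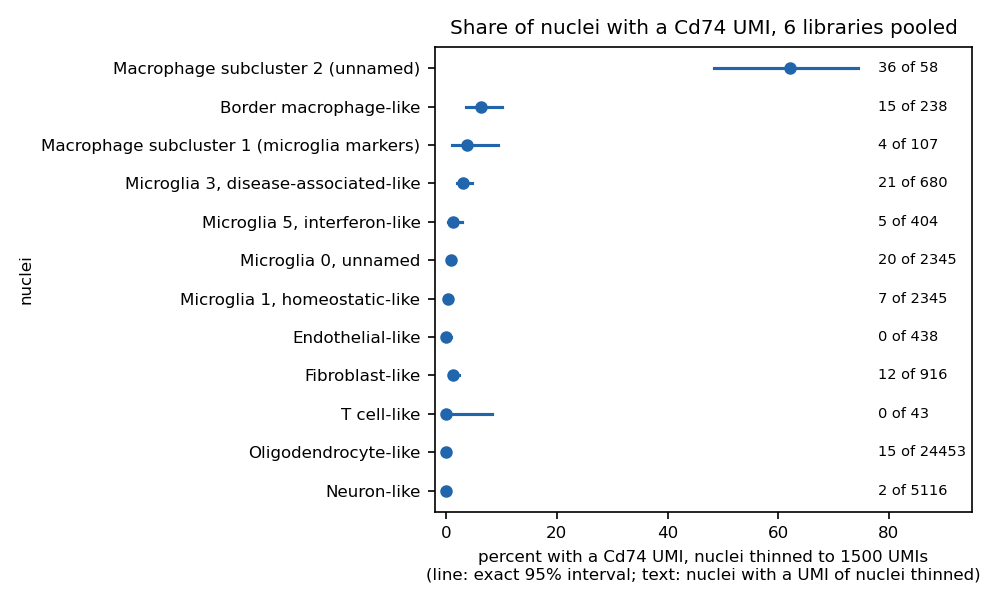
Percent of nuclei with at least 1 Cd74 UMI after thinning to 1500 UMIs (x axis), for each kind of nucleus (y axis), 6 libraries pooled. Points are shares, lines exact 95% intervals, and the text gives nuclei with a UMI of nuclei thinned. Macrophage subcluster 2 stands at 62.1%, and every other row is at 6.30% or lower.

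Within the microglia-like nuclei, Nlrc5 and Cd74 were highest in different clusters. Nlrc5 averaged 310 ± 51.7 CPM in the interferon-responsive-like cluster (405 nuclei), 111 ± 25.5 in the disease-associated-like cluster (684 nuclei) and 40.8 ± 10.5 in the main homeostatic-like cluster (2353 nuclei), and these 3 did not overlap over libraries. Microglia cluster 4, mostly from 5xFAD replicate 2, had 17.6 CPM pooled over libraries. By markers, cluster 0 came nearest to a cytokine state (5 of 8 high) and cluster 4 to the homeostatic state (5 of 10). Both are called by number here, since none of their first 10 genes is a marker of that nearest state. B2m was 171 ± 18.2 CPM in the interferon-responsive-like and 111 ± 8.62 in the homeostatic-like cluster, and H2-K1 was 91.4 ± 25.5 against 59.7 ± 13.4 CPM. Cd74 was instead highest in the disease-associated-like cluster, at 20.9 ± 16.05 CPM, against 10.1 ± 7.56 in the interferon-responsive-like and 1.53 ± 0.968 in the homeostatic-like cluster. Its libraries there ran from 0 UMIs in M28L replicate 2, which had 23 such nuclei, to 46.9 CPM in M28L replicate 3. Thinned, 3.09% of disease-associated-like nuclei had a Cd74 UMI (interval 1.92 to 4.68, 7.02% before thinning), against 0.299% of homeostatic-like nuclei (0.120 to 0.614, 0.552% before). The clusters were built from the same nuclei, so these are descriptions.

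Nlrc5 was also concentrated in a small oligodendrocyte cluster. Oligodendrocyte cluster 4, with 179 nuclei, was led by the interferon genes Oasl2, Ddx60, Usp18, Parp14 and Rnf213, and Nlrc5 was also among its first 10 genes. Nlrc5 averaged 363 ± 111 CPM there, against 11.1 ± 3.81 over all oligodendrocyte-like nuclei. H2-K1 averaged 51.7 ± 29.1 CPM, H2-D1 65.8 ± 19.2 and B2m 58.6 ± 8.92 in that cluster, above 12.2 ± 2.85, 13.96 ± 1.07 and 8.86 ± 1.1203 over all oligodendrocyte-like nuclei. No UMI of H2-Aa, H2-Ab1 or H2-Eb1 was found in its 179 nuclei, and Cd74 had 1. With 0 of 177 thinned nuclei, the exact 95% interval for H2-Aa reached 2.06%, which limits nuclei with a UMI and not nuclei that express the gene. A further 109 nuclei of the macrophage group, which carried microglia markers, averaged 562 ± 140 CPM of Nlrc5. They are not among the microglia-like nuclei, so no level or test given for microglia-like nuclei includes them.

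Genes most like each member over the 11 named cell types were found by Pearson correlation of log2(CPM + 1), with 11987 genes considered. For H2-K1 they were H2-Q4 (r = 0.97), the immunoproteasome gene Psmb8 and Tmbim6. Tap1 was most like Erap1 (r = 0.99), the aminopeptidase that trims class I peptides, then Dtx3l and Il10rb. Nlrc5 was most like Ikbkb (r = 0.96), H2-Q6 and Mob3a, and Cd74 was most like Gm17268 (r = 0.99), H2-Aa and Gm15655. The 11 points share libraries and differ in depth, and the correlations are descriptions.

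The groups were compared on UMIs summed per library and cell type, with edgeR's quasi-likelihood test and Benjamini-Hochberg adjustment over all genes of a contrast. The question was whether either variant of phospholipase C-gamma 2 goes with a different level of antigen presentation genes on the 5xFAD background. No member passed the adjusted threshold of 0.05 in any of 63 fits (21 cell types or clusters, 3 contrasts, 351 member tests), where 0.0496% of all gene tests passed. An unadjusted p under 0.05 was reached by 13 of the 351 (3.70%), against 7.75% of all gene tests, and DESeq2 called 0. Each group enters 2 of the 3 contrasts, which therefore share libraries. Microglia-like and oligodendrocyte-like nuclei were fitted whole and again as clusters, so many of the 351 tests also share nuclei.

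In microglia-like nuclei 9 of the 10 members had enough counts to be tested, all but H2-Ab1. edgeR called 0 of 9 for P522R against 5xFAD (0% of all 13691 genes called), 0 for M28L against 5xFAD (0.0073%) and 0 for P522R against M28L (0.0073%). None of these had an unadjusted p under 0.05, and DESeq2 called 0. Groups of 2 libraries failed to overlap for 4 of 9 members in P522R against 5xFAD (42.8% of all genes), 1 in M28L against 5xFAD (34.4%) and 4 in P522R against M28L (45.4%). The members' share was near that of all genes in 2 of the contrasts and below it in M28L against 5xFAD.

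Values per library follow as normalised CPM, replicate 2 before replicate 3. B2m had 119 and 129 CPM in P522R libraries and 130 and 129 CPM in M28L libraries, against 112 and 110 CPM in 5xFAD libraries. Both variant groups lay above 5xFAD without overlap, by log2 0.16 (SE 0.10, adjusted p = 0.576) for P522R and 0.22 (SE 0.10, adjusted p = 0.912) for M28L in edgeR. H2-K1 had 64.7 and 52.1 CPM in P522R libraries and 84.9 and 63.4 CPM in M28L libraries, against 72.5 and 49.4 CPM in 5xFAD libraries. All 3 groups overlapped for H2-K1, save that in each group replicate 2 was the higher library. H2-D1 had 40.7 and 36.5 CPM in P522R libraries and 50.3 and 35.7 CPM in M28L libraries, against 44.7 and 45.5 CPM in 5xFAD libraries. P522R lay below 5xFAD for H2-D1, and M28L spanned both. Nlrc5 had 82.6 and 92.6 CPM in P522R libraries and 90.7 and 77.1 CPM in M28L libraries, against 60.1 and 93.6 CPM in 5xFAD libraries. The 5xFAD libraries held both the lowest and the highest Nlrc5 value. H2-Q4 had 22.4 and 31.7 CPM in P522R libraries and 33.6 and 32.0 CPM in M28L libraries, against 28.4 and 33.1 CPM in 5xFAD libraries, and only P522R and M28L were apart.

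Class II values in microglia were low and rest on few UMIs. Cd74 had 8.98 and 6.59 CPM in P522R libraries and 3.84 and 6.08 CPM in M28L libraries, against 6.89 and 6.05 CPM in 5xFAD libraries. P522R lay above M28L without overlap and overlapped 5xFAD. H2-Aa had 2.64 and 2.20 CPM in P522R libraries and 0.903 and 1.37 CPM in M28L libraries, against 1.65 and 0.563 CPM in 5xFAD libraries. P522R lay above both other groups for H2-Aa, but its 47 UMIs over all 6 libraries gave log2 1.27 (SE 0.59) against 5xFAD, which did not pass (adjusted p = 0.450 in edgeR). H2-Eb1 had 2.64 and 1.51 CPM in P522R libraries and 0.903 and 2.16 CPM in M28L libraries, against 1.10 and 1.13 CPM in 5xFAD libraries, so P522R lay above 5xFAD and M28L spanned the rest. The number of microglia in the disease-associated-like cluster, where Cd74 was highest, differed alongside. It held 136 of 890 and 216 of 1572 microglia-like nuclei in P522R libraries, and 23 of 1112 and 52 of 1382 in M28L libraries. In 5xFAD libraries it held 54 of 1236 and 203 of 1683. These counts depend on the clustering: with antigen presentation genes kept, the clusters named from disease-associated markers held 2818 and 103 nuclei. The part of the disease-associated-like cluster in these values was not tested. Within that cluster unnormalised Cd74 was 24.4 and 27.0 CPM in P522R libraries and 0 and 46.9 CPM in M28L libraries, against 16.7 and 10.6 CPM in 5xFAD libraries.

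**Figure D3:**
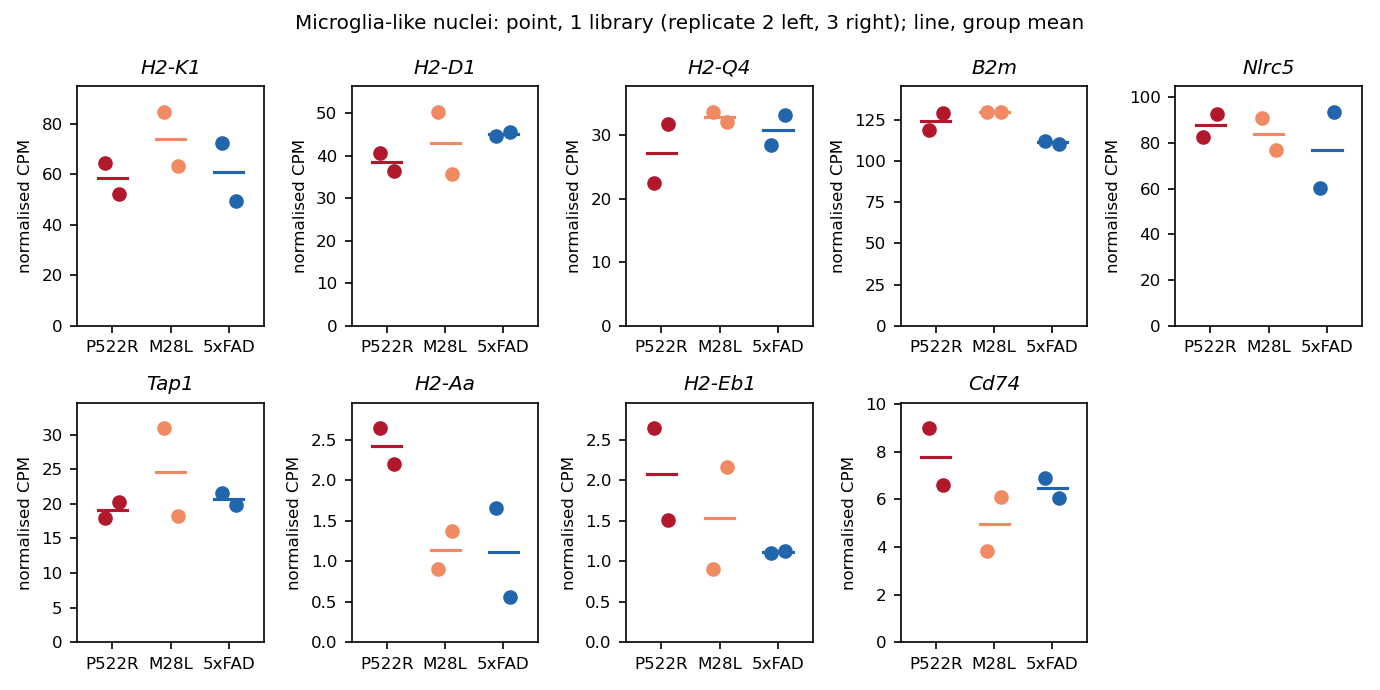
Normalised CPM (y axis) of the 9 members tested in microglia-like nuclei, by group (x axis). Each point is 1 library, with replicate 2 left of replicate 3, and lines are group means. Both variant groups sit above 5xFAD for B2m, with group means of 124 (P522R), 130 (M28L) and 111 (5xFAD) CPM, and no member passed the adjusted test.

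Border macrophage-like nuclei numbered 25 to 84 per library, and 4 of the 10 members were tested there. edgeR called 0 of 4 in P522R against 5xFAD (0% of 3115 genes), in M28L against 5xFAD (0.193%) and in P522R against M28L (0.128%), with no unadjusted p under 0.05 and 0 calls by DESeq2. H2-K1 had 63.6 and 57.4 CPM in P522R libraries and 97.7 and 141 CPM in M28L libraries, against 99.8 and 130 CPM in 5xFAD libraries. P522R was lowest in both libraries, on 6 and 4 UMIs. B2m had 106 and 187 CPM in P522R libraries and 133 and 141 CPM in M28L libraries, against 162 and 272 CPM in 5xFAD libraries, and only M28L lay wholly below 5xFAD. H2-D1 had 138 and 71.8 CPM in P522R libraries and 97.7 and 70.7 CPM in M28L libraries, against 66.6 and 169 CPM in 5xFAD libraries, which overlap throughout. Nlrc5 had 10.6 and 244 CPM in P522R libraries and 105 and 80.8 CPM in M28L libraries, against 147 and 221 CPM in 5xFAD libraries. P522R held both extremes, the lower on 1 UMI, and M28L lay below 5xFAD. Groups were apart for 1 member in P522R against 5xFAD (35.4% of genes), 2 in M28L against 5xFAD (35.2%) and 1 in P522R against M28L (34.8%). Among class II genes, which were too few to test, Cd74 gave 9 and 5 UMIs in P522R libraries and 9 and 2 in M28L libraries, against 18 and 1 in 5xFAD libraries. H2-Aa gave 6 and 2 UMIs in P522R libraries and 11 and 2 in M28L libraries, against 4 and 1 in 5xFAD libraries.

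In oligodendrocyte-like nuclei 7 of the 10 members were tested. edgeR called 0 of 7 in P522R against 5xFAD (0.0329% of 15183 genes), in M28L against 5xFAD (0%) and in P522R against M28L (0.0198%), and DESeq2 called 0. Only Nlrc5 in 1 contrast had an unadjusted p under 0.05. This was M28L against 5xFAD, with log2 0.93 (SE 0.31, adjusted p = 0.352 in edgeR). Nlrc5 had 8.61 and 11.6 CPM in P522R libraries and 16.01 and 14.4 CPM in M28L libraries, against 5.25 and 10.8 CPM in 5xFAD libraries. Both M28L libraries lay above the other 4. With the replicate number as a block its adjusted p was 0.0153, where 6.2% of all genes were called, and with no filter on low counts 0.0002, where 3.71% were. In Y-positive nuclei alone the fold had the other sign, log2 -0.37. Oligodendrocyte cluster 4, where Nlrc5 was high, held 0.731% and 0.755% of oligodendrocyte-like nuclei in P522R libraries. It held 1.03% and 1.10% in M28L libraries, against 0.295% and 0.516% in 5xFAD libraries, and its part in the Nlrc5 values was not tested.

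H2-D1 in oligodendrocyte-like nuclei had 13.2 and 15.6 CPM in P522R libraries and 14.8 and 14.3 CPM in M28L libraries, against 13.04 and 12.92 CPM in 5xFAD libraries. Every variant library exceeded both 5xFAD libraries, by little. H2-K1 had 11.2 and 11.4 CPM in P522R libraries and 16.6 and 10.4 CPM in M28L libraries, against 14.4 and 9.28 CPM in 5xFAD libraries, with overlap throughout. B2m had 7.32 and 10.7 CPM in P522R libraries and 9.16 and 8.84 CPM in M28L libraries, against 8.03 and 9.14 CPM in 5xFAD libraries, again overlapping. H2-Q4 had 2.03 and 4.86 CPM in P522R libraries and 3.07 and 4.15 CPM in M28L libraries, against 1.93 and 2.86 CPM in 5xFAD libraries, with M28L above 5xFAD. Tap1 had 0.445 and 0.904 CPM in P522R libraries and 1.59 and 0.791 CPM in M28L libraries, against 1.15 and 1.21 CPM in 5xFAD libraries, with P522R below 5xFAD. Of the 7 members, 2 were apart in P522R against 5xFAD (44.1% of genes), 3 in M28L against 5xFAD (42.2%) and 1 in P522R against M28L (37.7%). Cd74 lay between 0.198 and 0.823 CPM and H2-Aa between 0.0638 and 0.670 CPM. Oligodendrocyte-like nuclei were themselves among the types taken above to lack class II, so stray UMIs and expression could not be told apart there.

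In endothelial-like nuclei, 24 to 153 per library, 6 of the 10 members were tested and edgeR called 0 of 6 in P522R against 5xFAD (0.0244% of 8206 genes), in M28L against 5xFAD (0.0244%) and in P522R against M28L (0%). DESeq2 also called 0, and 1 of these tests had an unadjusted p under 0.05. B2m had 184 and 171 CPM in P522R libraries and 224 and 208 CPM in M28L libraries, against 250 and 278 CPM in 5xFAD libraries. The 3 groups were apart from one another, with P522R lowest and 5xFAD highest. P522R against 5xFAD gave log2 -0.56 (SE 0.22, adjusted p = 0.773 in edgeR). H2-K1 had 226 and 150 CPM in P522R libraries and 289 and 226 CPM in M28L libraries, against 237 and 193 CPM in 5xFAD libraries. H2-D1 had 281 and 191 CPM in P522R libraries and 341 and 236 CPM in M28L libraries, against 284 and 325 CPM in 5xFAD libraries. For the heavy chains P522R lay below M28L in H2-K1 and below 5xFAD in H2-D1, and the other pairs overlapped. Nlrc5 had 12.1 and 54.6 CPM in P522R libraries and 34.9 and 71.6 CPM in M28L libraries, against 32.2 and 25.6 CPM in 5xFAD libraries, where M28L lay above 5xFAD and P522R spanned both. Groups were apart for 2 members in P522R against 5xFAD (34.9% of genes), 2 in M28L against 5xFAD (32.8%) and 2 in P522R against M28L (34.8%), and P522R replicate 3 rests on 24 nuclei.

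**Figure D4:**
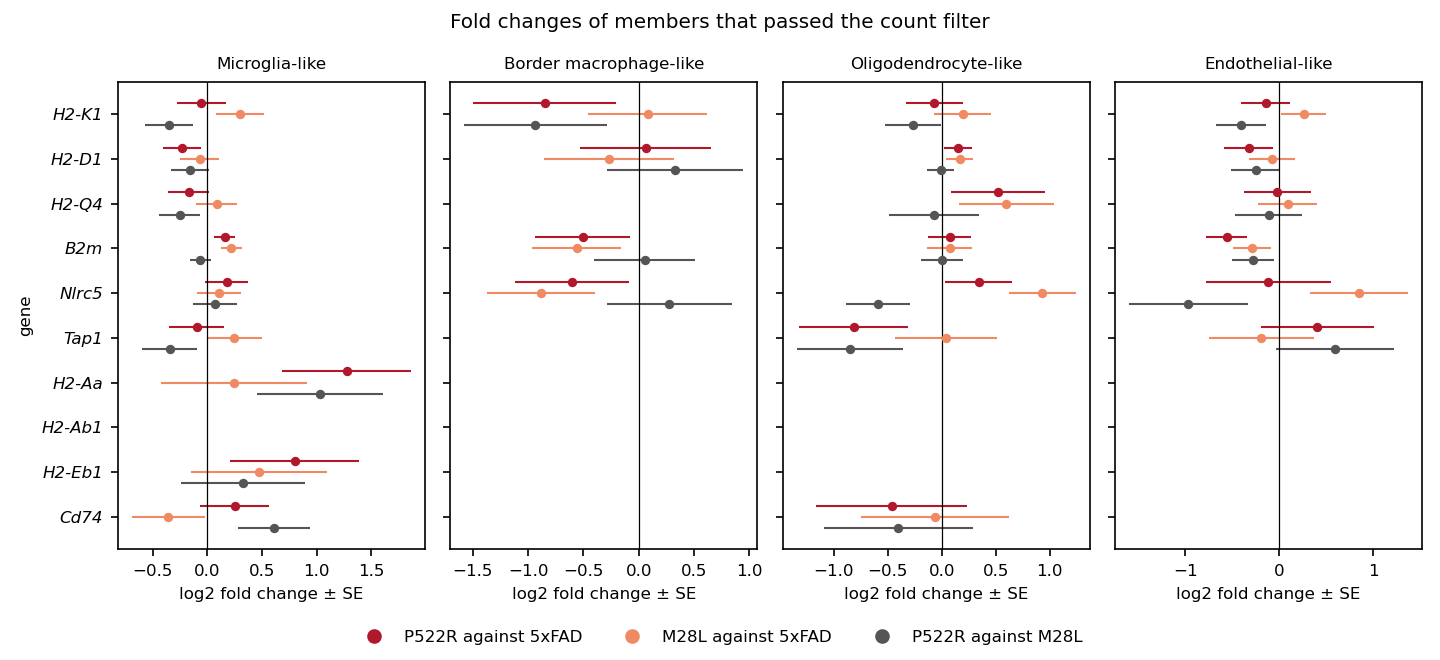
Log2 fold change ± SE from edgeR (x axis) for each member (y axis) that passed the count filter, in 4 cell types, for P522R against 5xFAD, M28L against 5xFAD and P522R against M28L. Of the 4 types plotted, H2-Aa and H2-Eb1 were testable in microglia-like nuclei alone and Cd74 there and in oligodendrocyte-like nuclei, and no point passed the adjusted threshold of 0.05.

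Of the other types, oligodendrocyte precursor (OPC-like) nuclei held 3 of the 13 tests with an unadjusted p under 0.05. H2-K1 gave log2 0.55 in M28L against 5xFAD (SE 0.17, adjusted p = 0.343 in edgeR, 0.0428 with the replicate number as a block). Nlrc5 gave log2 -0.68 and Tap1 -0.71 in P522R against M28L (adjusted p = 0.859 for both in edgeR). Without the block no gene (0%) was called in any contrast there, while the fit with the block called 5.96% of genes in M28L against 5xFAD. Committed OPC-like and pericyte-like nuclei had no member with enough counts.

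A wider set of 74 genes in 7 lists covered class I and class II chains, peptide loading, the antigen-processing proteasome, class II processing, MHC regulators and costimulation. In microglia-like nuclei 64 of them were tested, and edgeR and DESeq2 called 0 in either direction in each contrast. Their median log2 fold was -0.06 for P522R against 5xFAD, 0.06 for M28L against 5xFAD and -0.12 for P522R against M28L, against 0.00, -0.00 and -0.00 over all genes. Of the 64, 29 had folds above 0 for P522R against 5xFAD, 37 for M28L against 5xFAD and 19 for P522R against M28L. In this last contrast all 8 peptide-loading genes had folds below 0 (median -0.27), and none was called. Among them, Canx, a chaperone of new heavy chains, was at -0.06 (adjusted p = 0.908 in edgeR). Pdia3, its partner in the loading complex, was at -0.39 (adjusted p = 0.380). The 8 class II processing genes were divided, with 3 above 0, and Lgmn, an endosomal protease, was at -0.31 (adjusted p = 0.232). In microglia cluster 0, 1 of 7 peptide-loading genes tested, Pdia3, fell in P522R against M28L (log2 -0.71, SE 0.16, adjusted p = 0.0251 in edgeR), where 0.553% of all genes were called. Of the 52, 42 and 28 list genes tested in oligodendrocyte-like, endothelial-like and border macrophage-like nuclei, edgeR and DESeq2 called 0.

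Values were also set against the replicate number, in a fit chosen after the values were seen. H2-Q4 in replicate 2 over replicate 3 libraries was lower in oligodendrocyte-like nuclei (log2 -0.77, SE 0.21, adjusted p = 0.0483 in edgeR, 6.37% of genes called), 1 of 7 members called there. No member was called in microglia-like (1.51% of genes) or endothelial-like nuclei (0.0122%). H2-K1, for which replicate 2 was the higher microglia library in each group, was at log2 0.43 in microglia-like nuclei (SE 0.10, adjusted p = 0.0610), 0.42 in oligodendrocyte-like nuclei (adjusted p = 0.102) and 0.39 in endothelial-like nuclei (adjusted p = 0.814), but at -0.03 in astrocyte-like and -0.34 in border macrophage-like nuclei. Over all nuclei summed, where the mix of cell types also enters, H2-K1 was at 0.02 (adjusted p = 0.930), and 4 of 10 members were called with 16.6% of genes: B2m, Nlrc5 and H2-Q4 were lower in replicate 2 and H2-Eb1 higher. The labels do not say what the numbers stand for.

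Since each library pooled both sexes, nuclei with Xist and no Y-linked UMI were compared with nuclei that had Y-linked UMIs and no Xist, within library. Microglia-like nuclei with both Xist and Y-linked UMIs were left out, 104 of 890 and 305 of 1572 in P522R libraries. They numbered 193 of 1112 and 196 of 1382 in M28L libraries, against 90 of 1236 and 222 of 1683 in 5xFAD libraries. Those with neither, from 73 to 212 per library, were left out too. Stray UMIs can also give a false call, and their part was not tested. Among microglia-like nuclei given a call, Xist-positive ones made up 75.6% and 72.3% in P522R libraries. They made up 47.2% and 62.0% in M28L libraries, against 45.6% and 69.5% in 5xFAD libraries. The group contrasts above have no term for this share, and its part in them was not tested. In microglia-like nuclei 0 of 7 members tested were called by edgeR (0.0663% of 10563 genes), and in oligodendrocyte-like nuclei 0 of 5 (0.0645% of 12404 genes). The interaction of this difference with group was called for 1 member, Nlrc5, in microglia-like nuclei, in M28L against 5xFAD. The difference between Xist-positive and Y-positive nuclei was greater in M28L than in 5xFAD by log2 2.06 (SE 0.41, adjusted p = 0.0343 in edgeR), where 0.795% of all genes were called. In the main homeostatic-like cluster alone, the same interaction was called for 0 of 6 members and for 14 of 7210 genes.

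Nlrc5 in Xist-positive microglia-like nuclei had 91.5 and 104 CPM in P522R libraries and 141 and 98.5 CPM in M28L libraries, against 15.4 and 80.2 CPM in 5xFAD libraries. In Y-positive nuclei it had 71.5 and 83.7 CPM in P522R libraries and 68.8 and 54.5 CPM in M28L libraries, against 91.9 and 112 CPM in 5xFAD libraries. Xist-positive nuclei were the higher in all 4 variant libraries and the lower in both 5xFAD libraries. The call was lost without either M28L library (adjusted p = 0.484 without replicate 2, 0.168 without replicate 3), without either P522R library (0.0951 and 0.0918) and with the interferon-responsive-like cluster taken out (log2 1.61, adjusted p = 0.164). Leaving out 5xFAD replicate 2 gave 1.46 and leaving out 5xFAD replicate 3 gave 3.52, both called, with 1.02% and 10.4% of all genes called. In each such fit 1 library is left in a group, and it is assumed to vary like the libraries of the other groups. The interaction of P522R against 5xFAD was log2 1.44 (adjusted p = 0.341, with 0% of genes called), and for P522R against M28L it was -0.62 (adjusted p = 0.847, 0% of genes called).

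Interferon markers moved with Nlrc5 in these sums. The 20 interferon-responsive markers summed to 1133 and 1478 CPM in Xist-positive nuclei of P522R libraries and to 1847 and 1474 CPM in M28L libraries, against 657 and 1271 CPM in 5xFAD libraries. In Y-positive nuclei they summed to 1069 and 1109 CPM in P522R libraries and 919 and 1011 CPM in M28L libraries, against 1254 and 1365 CPM in 5xFAD libraries. Irf8, a transcription factor of macrophages and interferon responses, was called in the same interaction, M28L against 5xFAD (log2 0.93, adjusted p = 0.0446 in edgeR). The lowest sum came from 5xFAD replicate 2, whose Xist-positive nuclei also had the lowest disease-associated marker sum, 619 CPM against 1125 to 3678 CPM in all others. The part of these markers in the result was not tested, and the sex of the mice cannot be told apart from the single animals behind each library.

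**Figure D5:**
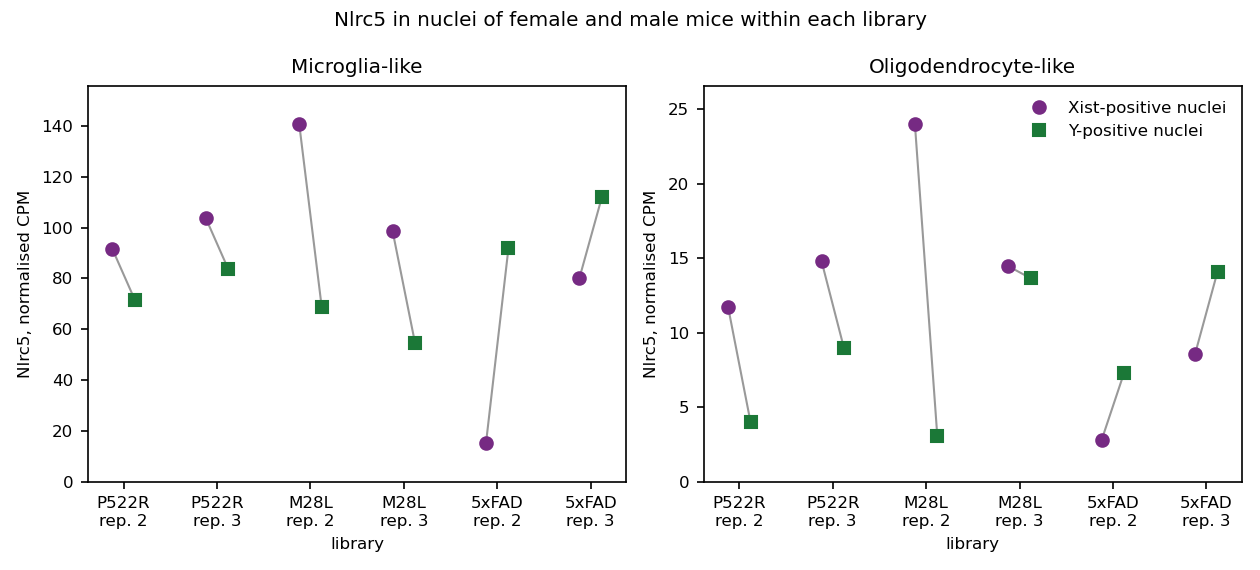
Normalised CPM of Nlrc5 (y axis) in Xist-positive (circles) and Y-positive (squares) nuclei of each library (x axis), in microglia-like and oligodendrocyte-like nuclei; a line joins the sums of 1 library. In microglia-like nuclei the circle lies above the square in the 4 variant libraries and below it in both 5xFAD libraries, down to 15.4 CPM in 5xFAD replicate 2.

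Oligodendrocyte-like nuclei gave the same arrangement without passing the test. They came from the same 6 libraries, so this is not a separate observation in other mice. Nlrc5 in Xist-positive nuclei had 11.7 and 14.8 CPM in P522R libraries and 23.98 and 14.5 CPM in M28L libraries, against 2.81 and 8.58 CPM in 5xFAD libraries. In Y-positive nuclei it had 4.005 and 8.98 CPM in P522R libraries and 3.04 and 13.6 CPM in M28L libraries, against 7.31 and 14.1 CPM in 5xFAD libraries. The interaction was log2 2.05 for P522R against 5xFAD (adjusted p = 0.210, 0.411% of genes called) and 2.22 for M28L against 5xFAD (adjusted p = 0.133, 1.83% of genes called) in edgeR. It was called for no member in P522R against M28L either, where 0.0564% of genes were.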

How the data were processed

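Single-nucleus RNA-seq (10x 3' chemistry) was deposited for 6 libraries, with 2 in each of 3 groups. The authors made UMI counts per gene and nucleus with Cell Ranger and mm10, per the submitters' processing notes; the deposited count matrices are not normalised. Per the file headers, version 6.1.2 made 5 libraries and 5.0.1 made P522R replicate 3. Whether intronic reads were counted is not given in the sources used here.

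Barcodes under 500 UMIs, under 300 genes or over 5% mitochondrial UMIs were dropped, which left 62651 of 62687, and 2566 doublets called by Scrublet (threshold 0.310919) were removed. Clustering used scanpy 1.11.5 and leidenalg 0.10.2 with 2000 variable genes, antigen presentation genes left out, and gave 33 clusters. Counts were summed per library and cell type and tested with edgeR 4.0.16 (quasi-likelihood, TMM, minimum count 10, all 6 libraries in 1 fit, two-sided, adjusted p under 0.05). The fit was tested on simulated data. DESeq2 1.42.0, RLE factors, other filters, fewer libraries, a replicate block, single-sex nuclei and each library left out were the alternatives. With 2 libraries a group, the smallest p of an exact permutation test is 0.333.

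The members, the 7 lists and the tests were chosen with earlier results of these data known. All members were named, and from each list the genes called or the 2 with the highest mean CPM. Intervals are exact binomial. Results for some list genes are not reported here.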

Additional observations from a re-analysis of the deposited data

Results flagged for a closer look

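The difference in Nlrc5 between Xist-positive and Y-positive microglia-like nuclei differed between M28L and 5xFAD, by log2 2.06 in a test of the difference itself (SE 0.41, adjusted p = 0.0343 in edgeR's quasi-likelihood test). Xist-positive nuclei were the higher in 2 of 2 M28L libraries and the lower in 2 of 2 5xFAD libraries. In that test 0.795% of all genes were called. In the main homeostatic-like cluster alone it was called for 0 of 6 members and for 14 of 7210 genes. Over the libraries left out in turn the value ran from 1.46 to 3.52. The call was lost without either M28L library, without either P522R library and without the interferon-responsive-like cluster, with adjusted p up to 0.484. The numbers of mice of each sex behind a library are not given here, so sex and single animals cannot be told apart.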

How the results depend on the processing

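No alternative changed the count of 0 members called in microglia-like nuclei. In oligodendrocyte-like nuclei, M28L against 5xFAD, 1 member was called with no filter on low counts and 1 with the replicate block (Nlrc5, log2 0.93 and 0.98, with 3.71% and 6.2% of all genes called), and 2 list genes with the replicate block. OPC-like nuclei in the same contrast gave 1 with the replicate block (5.96% of genes). With no filter, 1 member was called in endothelial-like nuclei (M28L against 5xFAD, 0.401% of genes), in oligodendrocyte cluster 0 (P522R against M28L, 0.722%) and in oligodendrocyte-like Xist-positive against Y-positive nuclei (0.549%). With libraries left out, unnamed cluster 3 gave 0 to 1 in P522R and in M28L against 5xFAD, with 1 without 5xFAD replicate 3 (1.94% and 2.58% of genes). Same-numbered libraries deviated together with r of 0.185 to 0.298 in microglia-like and 0.325 to 0.419 in oligodendrocyte-like nuclei, a hint from the data only.

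For the interaction in microglia-like nuclei, M28L against 5xFAD, members called were 2 with no filter (2.29% of all genes), 0 without the interferon cluster (0.413%, a setting chosen after seeing the data) and 0 to 3 with libraries left out, with 3 without 5xFAD replicate 3 (10.4%). P522R against 5xFAD gave 1 with no filter (231 of 21758 genes) and 0 to 1 with libraries left out, with 1 without 5xFAD replicate 3 (6.99%). In oligodendrocyte-like nuclei it gave 2 for P522R and 1 for M28L with no filter (1.77% and 2.15%), and 0 to 1 for M28L with libraries left out, with 1 without M28L replicate 3 (0.643%). The Nlrc5 interaction ranged over 0.82 to 2.90 (microglia-like, P522R) and 1.02 to 3.94 (oligodendrocyte-like, M28L).

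Of uncalled member folds, 19 of 36 changed sign in Y-positive nuclei alone and 7 of 36 in Xist-positive nuclei alone (microglia-like and oligodendrocyte-like), and 62 of 468 did with libraries left out in the 4 types whose folds are plotted. The named ones follow. In microglia-like Y-positive nuclei alone B2m was -0.0078 in P522R, H2-K1 -0.10 in M28L, and Nlrc5 -0.37 in P522R and -0.73 in M28L, all against 5xFAD; oligodendrocyte-like Nlrc5 was -0.37 in M28L. In microglia-like Xist-positive nuclei alone Cd74 was 0.71 and H2-D1 0.10 in M28L, and H2-K1 0.26 in P522R. In all microglia-like nuclei, with libraries left out, H2-D1 in M28L ran from -0.33 to 0.16, H2-K1 in P522R from -0.32 to 0.23, and Nlrc5 from -0.16 to 0.48 in M28L and from -0.092 to 0.55 in P522R. The cause was not tested.

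Keeping antigen presentation genes for clustering put border macrophage-like Cd74 at 11.1 and H2-Aa at 2.36 CPM. Unthinned shares were 35.2%, 46.5% and 3.30% for B2m in microglia-like, endothelial-like and oligodendrocyte-like nuclei, and 2.01%, 75.4%, 0.198% and 0.464% for Cd74 in microglia-like, macrophage subcluster 2, oligodendrocyte-like and neuron-like nuclei.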
